A study of Mus musculus with 4 samples.

Results

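The A-kinase anchoring proteins (AKAPs) are a family of scaffold proteins, and 10 genes whose symbols carry the family name were followed here, out of 34745 genes with a row in the deposited table. The 10 were Akap1, Akap2, Akap6, Akap8, Akap8l, Akap9, Akap10, Akap11, Akap12 and Akap13, and each had a row under its own symbol. They were chosen to ask whether Akap6, a gene singled out by the study and lower with dimethyl itaconate (DI) in these counts, changed alone. The members were thus selected on their family name and on the fall of Akap6 in the counts of this same comparison, so that values of the 10 members are given as a description with no p-value, and a member that passed the threshold used for all genes is named as part of that description only. The cells were primary bone marrow derived monocytes/macrophages (BMMs) of wild-type male C57BL/6 mice aged 8 weeks, kept without serum for 12 h and then given RANKL, the cytokine that turns macrophages into osteoclasts, at 100 ng/mL. For the same 24 h one group received DI, a cell-permeable ester of the macrophage metabolite itaconate (RANKL+DI, 2 libraries), and the other received the DMSO vehicle (RANKL+Veh, 2 libraries). The labels give DI at 20 mM, while the methods of the study give 20 μM. All 4 libraries received RANKL, and no library without RANKL was analysed here. The labels do not say whether the 2 libraries of a group came from separate mice or cultures, so p-values measure the spread between these libraries, which may be technical.

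AKAPs hold protein kinase A (PKA) at defined places in the cell. PKA is a complex of regulatory and catalytic subunits, and cAMP, made by adenylyl cyclases and broken down by phosphodiesterases, releases the active catalytic subunits from the regulatory ones. An amphipathic helix of the AKAP binds the paired regulatory subunits, mostly of type II, while other parts of the scaffold bind a membrane, the centrosome or chromatin and collect phosphatases, phosphodiesterases and further kinases. AKAP6, also called mAKAP, is best known from the nuclear envelope of heart muscle cells, where it gathers PKA, a phosphodiesterase, calcineurin and NFAT and MEF2 factors, and it is also found in neurons.

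Promoter sequences of the members are shown first because Akap6 stood apart from the other listed members in them. A link between its promoter and its change with DI was not tested. RefSeq promoters on GRCm38.p6, of 300 bases with 250 before and 50 after the start of the gene, were listed for 8 of the 10 members, Akap2 and Akap12 being those not matched. The sequences below are those of Akap6 (chr12:52699133-52699432, plus strand), of Akap1 (chr11:88864537-88864836, minus strand, 1 of 3 promoters listed), which showed the next largest change, and of Akap8 (chr17:32321189-32321488, minus strand), the member with the highest level per length. They run 5′ to 3′, and capitals mark each CG dinucleotide.
Akap6: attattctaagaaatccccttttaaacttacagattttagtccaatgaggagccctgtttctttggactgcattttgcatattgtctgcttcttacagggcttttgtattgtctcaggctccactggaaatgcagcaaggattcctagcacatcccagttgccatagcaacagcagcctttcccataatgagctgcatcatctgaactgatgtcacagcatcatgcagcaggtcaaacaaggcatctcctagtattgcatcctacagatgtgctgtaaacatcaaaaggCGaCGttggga
Akap1: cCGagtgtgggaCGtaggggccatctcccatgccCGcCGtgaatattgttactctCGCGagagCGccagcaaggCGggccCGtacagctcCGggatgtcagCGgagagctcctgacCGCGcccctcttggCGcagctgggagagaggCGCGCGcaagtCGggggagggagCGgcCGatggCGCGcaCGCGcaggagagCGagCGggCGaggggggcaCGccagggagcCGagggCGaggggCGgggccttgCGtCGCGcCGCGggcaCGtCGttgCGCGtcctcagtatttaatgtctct
Akap8: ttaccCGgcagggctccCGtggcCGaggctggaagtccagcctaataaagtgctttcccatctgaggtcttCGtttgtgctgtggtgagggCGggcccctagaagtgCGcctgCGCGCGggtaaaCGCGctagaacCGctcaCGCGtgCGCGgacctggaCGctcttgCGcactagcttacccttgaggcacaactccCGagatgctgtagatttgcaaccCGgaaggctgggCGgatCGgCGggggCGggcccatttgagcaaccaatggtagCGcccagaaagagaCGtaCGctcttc

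Only 2 CG dinucleotides, both near the 3′ end, were found in the Akap6 window, whose GC content was 43.7%. The Akap1 window held 40 and the Akap8 window 27, at 70.7% and 62.0% GC. Across the 7 other members with an entry, the number ranged from 17 (Akap13) to 40 and the GC content from 56.7% (Akap8l) to 70.7%. Among 32544 distinct promoters of the same length the median was 7 CG dinucleotides at 53.0% GC, 23.1% had 2 or fewer and 31.6% had 17 or more. On either strand, the cAMP response element TGACGTCA occurred in 1.8% of all promoters and the AP-1 letters TGANTCA in 7.79%, and neither occurred in the window of any of the 8 members. The core of the antioxidant response element, TGACNNNGC, occurred in 12.4% of all promoters and once each in those of Akap1 and Akap10. These are matches of letters, and nothing on the binding of a factor was measured.

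The depth of the 4 libraries lay between 16085692 and 19403480 counts, so that 3 counts, taken as the floor of detection, stood for 0.16 to 0.18 CPM (counts relative to library size, here scaled by TMM). The floor covers counting error only. Over all genes, 12590 had enough counts to be tested, and 1868 of them (14.8%) passed an adjusted p of 0.05 in edgeR's quasi-likelihood test, 899 higher (7.14%) and 969 lower (7.7%) with DI. All 8 macrophage markers were well detected in every library, and 5 of them rose and 2 fell (Fcgr1 and Cd14). Their levels summed to 28443 to 29258 CPM with DI and 22261 to 23125 CPM with vehicle. Most of that was Lyz2, which rose, at 22772 and 23786 CPM with DI against 18289 and 17630 CPM. Of 10 osteoclast markers 8 were tested, 5 of which fell (Acp5, Ctsk, Ocstamp, Mmp9 and Src) and 2 of which rose (Atp6v0d2 and Itgb3), at summed levels of 680 to 695 CPM with DI against 697 to 724 CPM. Most of these sums was Atp6v0d2, without which they were 170 and 187 CPM with DI against 279 and 297 CPM, and Calcr was at 0 in all 4 libraries. In such bulk RNA, fewer cells of a type and less RNA per cell cannot be told apart. Summed levels of markers of B cells, T and NK cells, mast cells and basophils and erythroid cells stayed at or under 0.600 CPM in each library, and those of neutrophils at or under 4.35 CPM. Stromal markers summed to 41.4 to 51.4 CPM, and none of the 5 tested passed edgeR's test at an adjusted p of 0.05 or at an unadjusted one, nor DESeq2, limma-voom or limma on log2(FPKM + 1).

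Levels of different genes were compared per length, in the deposited FPKM (fragments relative to gene length and library total). In RANKL+Veh, Akap8, a nuclear AKAP that takes part in chromosome condensation, had the highest level at 27.5 ± 0.00708 FPKM (SD, n = 2, as for all values after ±). Akap13 followed at 14.1 ± 0.484 FPKM, and Akap8l, the nuclear paralog of Akap8, at 13.5 ± 1.32 FPKM. Libraries of the latter pair overlapped, so that their order is not set. Akap10, which binds both types of regulatory subunit, stood at 9.68 ± 1.65 FPKM and overlapped Akap11, a scaffold that also binds GSK3 and protein phosphatase 1, at 8.76 ± 0.286 FPKM. Akap1, the AKAP of the outer mitochondrial membrane, came next at 7.24 ± 0.299 FPKM. Akap6 was in the lower part of the order at 4.45 ± 0.119 FPKM, just above Akap9, the large AKAP of the centrosome and Golgi, at 3.91 ± 0.243 FPKM. Akap2, which binds actin, and Akap12, a scaffold of the cell periphery also called gravin, were at the bottom with 0.781 ± 0.141 and 0.236 ± 0.0319 FPKM. The vehicle libraries of each other neighbouring pair in this order did not overlap. With DI, Akap6 was at 0.938 ± 0.126 FPKM and had passed below Akap9, at 3.52 ± 0.284 FPKM, while all other members kept their order except that Akap8l (13.8 ± 0.305 FPKM) stood above Akap13 (13.3 ± 0.109 FPKM).

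**Figure D1:**
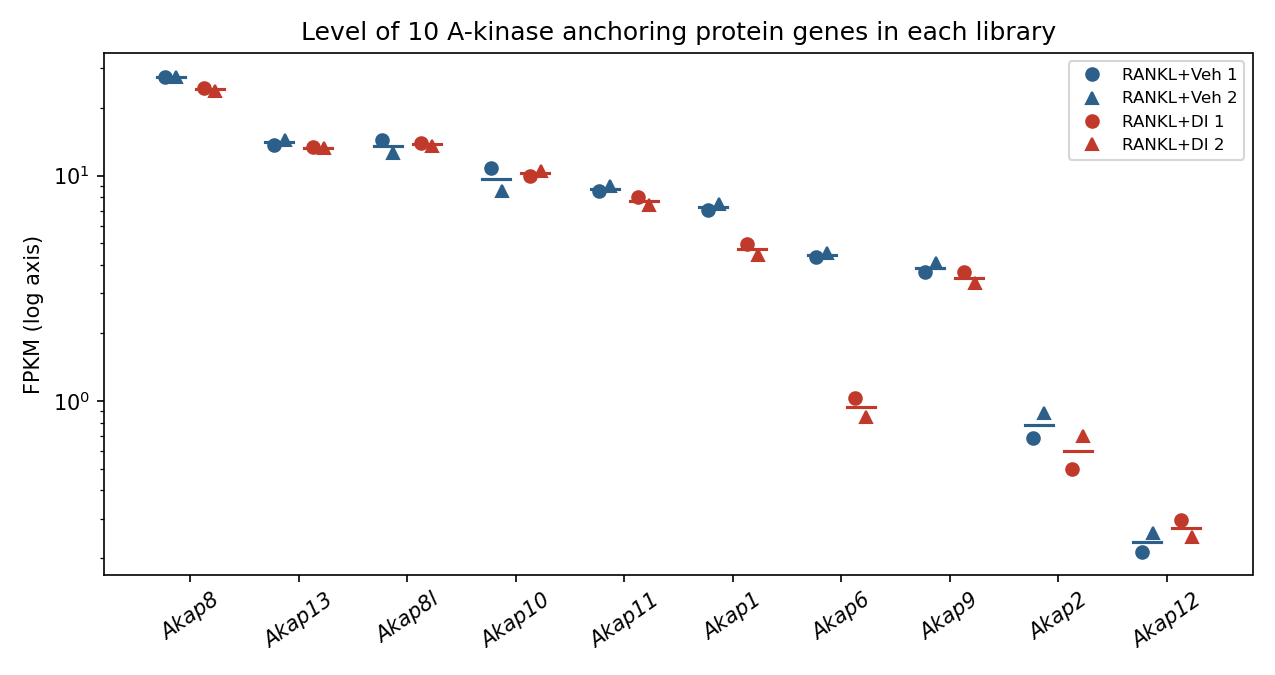
FPKM of each member in each library (log axis), with vehicle in blue and DI in red, circles for replicate 1, triangles for replicate 2 and a bar at the mean of each group. Members are ordered by their vehicle level. Akap6 goes from 4.37 and 4.54 FPKM with vehicle to 1.03 and 0.849 with DI, and most other members show DI points beside or close to their vehicle points.

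The family as a whole summed to 91.1 and 89.2 FPKM with vehicle and to 80.5 and 77.9 FPKM with DI. Akap6 made up 4.80% and 5.09% of that sum with vehicle and 1.28% and 1.09% with DI. Without Akap6 the sums were 86.7 and 84.6 FPKM against 79.5 and 77.1 FPKM. The deposited FPKM carry no TMM scaling. On the log2(FPKM + 0.01) scale the median of all tested genes was itself shifted by -0.101 with DI. The fall of the sums in FPKM is thus shared in part by the typical gene, and what goes beyond that shift was not tested.

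Akap6 (ENSMUSG00000061603) lies on the plus strand of chromosome 12 from 52699383 to 53151015 (GRCm38, as deposited), with 14 merged exons and 2 transcripts in GENCODE M21. Its counts were 806 and 749 in RANKL+Veh and 188 and 169 in RANKL+DI. On the TMM scale these are 43.3 and 45.0 CPM against 10.95 and 9.01 CPM. Libraries of the same group lay close to each other and the groups were far apart, the level with DI being 22.6% of that with vehicle. The log2 fold change of -2.15 (standard error 0.11) was larger in size than that of all but 0.286% of tested genes, and a change of at least 1 in either direction was seen in 2.98% of them. These values chose the gene and are no test of it.

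No exon of another gene in GENCODE M21 overlapped Akap6, and no other transcript there matched it over the length searched. Shorter matches were not examined. The annotation used for counting differs from M21 at this gene, which ends at 53151015 as deposited and at 53155599 in M21. Of the genes within 1 Mb with at least 10 counts on average, all 3 lay before its start, and none lay after its end. Arhgap5, 131.5 kb away, had a log2 fold change of -0.18 (standard error 0.082, edgeR adjusted p = 0.198), which was -0.09 without DI replicate 1 and -0.28 without DI replicate 2. The next were Nubpl, for assembly of mitochondrial complex I, at -0.20 (standard error 0.12, edgeR adjusted p = 0.307) and 386.6 kb, and Dtd2, a tRNA deacylase gene, at -0.31 (standard error 0.11, edgeR adjusted p = 0.123) and 692.9 kb. None of the 3 passed the threshold, with 95% intervals of -0.38 to 0.02, -0.49 to 0.08 and -0.59 to -0.04, although Dtd2 did so when libraries were scaled by size only or FPKM were used.

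Because AKAP6 is known from muscle and neurons, markers of both were checked beside it. The muscle list summed to 3.36 to 3.44 CPM with vehicle and 1.98 to 2.83 CPM with DI. Per length the list summed to 1.18 and 1.06 FPKM with vehicle and 0.743 and 0.813 FPKM with DI, most of it from Tnni2, where Akap6 had 4.37 and 4.54 against 1.03 and 0.849 FPKM. The defining genes Actc1, Myh6, Myh7, Tnnt2 and Myod1 were at 0 in all 4 libraries. Neither of its 2 tested genes (Ttn and Tnni2) passed edgeR's test at an adjusted p of 0.05 or at an unadjusted one, nor DESeq2 or limma-voom, and 1 passed with limma on log2(FPKM + 1). Neuron markers summed to at most 0.480 CPM, with 5 of 7 genes (Rbfox3, Snap25, Syt1, Nefl and Gad1) at 0 in all libraries.

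Akap1 (ENSMUSG00000018428, chromosome 11 from 88830792 to 88864586) was the member with the next largest change. Its counts were 622 and 590 with vehicle against 437 and 425 with DI, that is 33.4 and 35.4 CPM against 25.5 and 22.7 CPM. Both DI libraries were below both vehicle libraries, at 69.9% of the vehicle level. The log2 fold change was -0.52 (standard error 0.087), smaller in size than that of 12.6% of tested genes, and it ranged from -0.43 to -0.60 when each library was left out in turn. Akap1 was the single member besides Akap6 to pass an adjusted p of 0.05, 1 of the 9 others, where 14.8% of all tested genes did. Since the comparison entered the choice of members, nothing is read from that count. Without DI replicate 2 or without vehicle replicate 2 no member besides Akap6 passed, where 1295 of 12905 and 1087 of 12934 genes tested in those fits did, and without vehicle replicate 1 both Akap1 and Akap10 passed, where 1120 of 12874 genes did.

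The nuclear pair Akap8 (ENSMUSG00000024045, chromosome 17 from 32303676 to 32321153) and Akap8l (ENSMUSG00000002625, from 32321425 to 32350581) are direct neighbours on the minus strand. Akap8 had 98.1 CPM in both vehicle libraries and 94.6 and 90.5 CPM with DI. Akap8l had 28.9 and 25.2 CPM with vehicle and 30.2 and 29.2 CPM with DI. Groups did not overlap for either gene, but the differences were small and of opposite sign, with a log2 fold change of -0.08 for Akap8 (standard error 0.051) and 0.13 for Akap8l (standard error 0.091). Akap8 also passed the threshold when libraries were scaled by size only and on both FPKM scales, where its log2 fold change was between -0.18 and -0.19 and 17.5% to 19.7% of all tested genes passed. Without DI replicate 2 the value for Akap8 was -0.05, and that for Akap8l became 0.24 when vehicle replicate 1 was dropped and 0.04 when vehicle replicate 2 was.

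Akap9 (ENSMUSG00000040407, chromosome 5 from 3928054 to 4081310) had 93.0 and 102 CPM with vehicle and 99.8 and 88.6 CPM with DI. The groups overlapped, at a log2 fold change of -0.05 (standard error 0.078), which became 0.04 without DI replicate 2 and 0.02 without vehicle replicate 2. Its exons overlap Cyp51, a gene of sterol synthesis on the opposite strand, over 0.778% of their length. Cyp51 itself was at 0.15 (standard error 0.052, edgeR adjusted p = 0.119). Gm43031, listed within an intron of Akap9, had 20 to 24 counts in each library (-0.13, standard error 0.31, edgeR adjusted p = 0.833).

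Among the scaffolds with further enzymes, Akap11 (ENSMUSG00000022016, chromosome 14 from 78492246 to 78536860) had 79.3 and 83.1 CPM with vehicle and 80.3 and 73.3 CPM with DI, and Akap13 (ENSMUSG00000066406, chromosome 7 from 75455534 to 75754609) had 166 and 175 against 174 and 172 CPM. Groups overlapped for both. The log2 fold change was -0.08 for Akap11 (standard error 0.067) and 0.02 for Akap13 (standard error 0.045), where 92.5% of tested genes changed by more than Akap13. With a library left out Akap11 ranged from -0.15 (without DI replicate 1) to -0.01 (without DI replicate 2). The sign for Akap13 turned with scaling by library size only and on both FPKM scales, to -0.08, and to -0.02 without vehicle replicate 1. Akap10 (ENSMUSG00000047804, chromosome 11 from 61871307 to 61930252) had 91.4 and 71.8 CPM with vehicle and 90.2 and 94.98 CPM with DI. The vehicle libraries differed from each other more than the groups did, and the log2 fold change of 0.18 (standard error 0.11) became 0.37 when vehicle replicate 1 was left out and 0.02 when vehicle replicate 2 was.

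Akap12 (ENSMUSG00000038587, chromosome 10 from 4266329 to 4359468) had the fewest counts of the 10 members, with 24 and 26 counts with vehicle and 33 and 30 with DI. These are 1.29 and 1.56 CPM against 1.92 and 1.60 CPM, and groups that barely failed to overlap gave a log2 fold change of 0.31 with a standard error of 0.28, which was 0.17 without DI replicate 1 or vehicle replicate 1 and 0.44 to 0.45 without either of the others. A change as small as that of Akap1 could not be told from none at this depth.

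Akap2 (ENSMUSG00000038729, chromosome 4 from 57717657 to 57896982) had 146 and 169 counts with vehicle and 106 and 161 with DI, or 7.84 and 10.1 CPM against 6.18 and 8.59 CPM. The groups overlapped at a log2 fold change of -0.28 (standard error 0.21), which was -0.06 without DI replicate 1, -0.54 without DI replicate 2, -0.46 without vehicle replicate 1 and -0.08 without vehicle replicate 2. Its counts are uncertain because 84.4% of its exon bases (6891 bases) belong on the same strand also to Pakap, a gene model that joins Akap2 with its neighbour and shares 99.1% of an Akap2 transcript. Pakap had 63 and 19 counts with vehicle and 4 and 2 with DI, a log2 fold change of -3.72 (standard error 0.78, edgeR adjusted p = 0.0296) that rested largely on vehicle replicate 1, without which it was -2.72 (edgeR adjusted p = 0.0740). Pakap lost its call under 4 of 13 alternatives, the removal of DI replicate 2 among them. Over these 13 its log2 fold change ranged from -4.34 to -0.19. How reads of the shared exons were divided is not given in the sources used here. With both rows summed, an alternative added after the data were seen, the counts were 209 and 188 with vehicle and 110 and 163 with DI. The summed levels of 11.2 and 11.3 CPM against 6.41 and 8.69 CPM no longer overlapped, at a log2 fold change of -0.57.

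Over the family, groups did not overlap for 5 of the 10 members, Akap6 and Akap1 included, where 58.6% of all tested genes had groups that did not overlap. Of the 9 members other than Akap6, 4 were higher and 5 lower with DI, and their median log2 fold change was -0.05, beside 0.00 (0.0012) for all tested genes. In size, 8 of these 9 were under 0.31, a bound taken from the largest of the 8, Akap12. Of all tested genes 26.5% changed by more than Akap12, and the median size over them was 0.16. At the threshold used Akap1 passed beside Akap6, and the log2 fold change of Akap6 was several times that of any other member in size. The value of Akap2 is uncertain, because 84.4% of its exon bases are shared with Pakap, itself at -3.72. With both rows summed Akap2 was at -0.57, larger in size than Akap1, and did not pass.

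**Figure D2:**
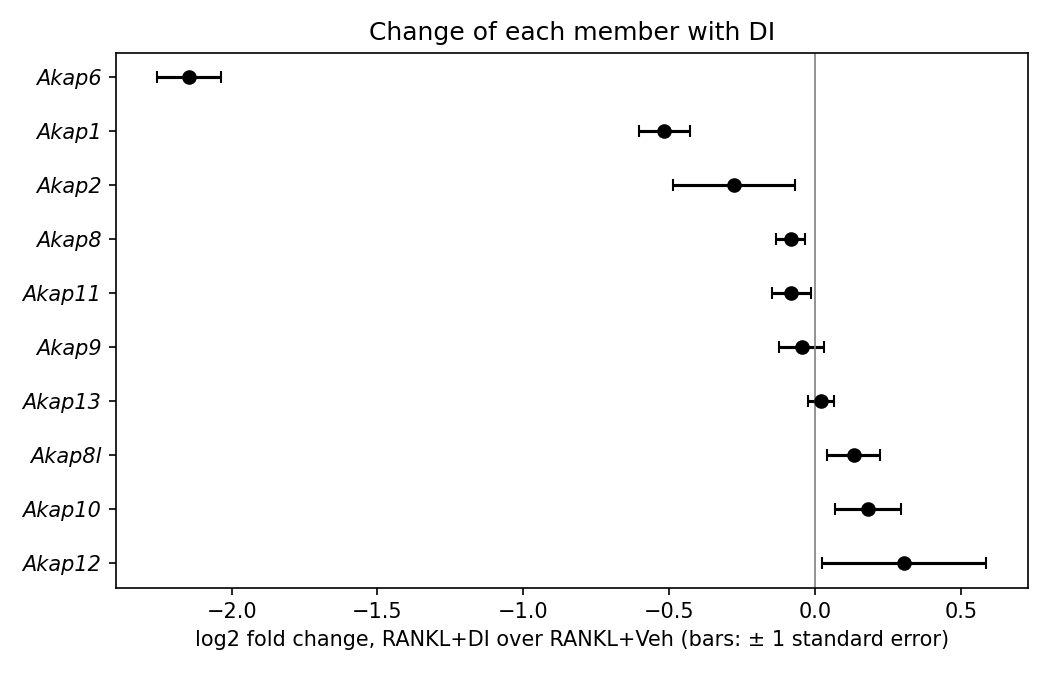
Log2 fold change of each member with DI over vehicle (points) and its standard error (bars, ± 1), in order of size. Akap6 lies at -2.15 and Akap1 at -0.52, while the other 8 members lie between -0.28 and 0.31, some with bars that cross 0.

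Genes with a pattern most like that of Akap6 over the 4 libraries were sought among 11007 genes whose log2 CPM averaged above 1, by the Euclidean distance of log2 CPM centred on each gene's mean. The nearest were Pgf, a growth factor of the VEGF family (distance 0.241), Nek7, a kinase of the NLRP3 inflammasome (0.260), Ocstamp, a membrane protein of osteoclast fusion (0.286), and the interferon-inducible genes Ifit3 (0.312) and Gbp5 (0.328). Pgf had 259 and 230 counts with vehicle against 49 and 55 with DI. Nek7 had the most counts of the 5, with 2889 and 2741 against 776 and 763 counts. Ocstamp, which is also on the osteoclast list, went from 101 and 92 counts to 19 and 15. Their log2 fold changes ran from -1.88 (Ifit3) to -2.52 (Ocstamp). They were chosen for this pattern, so that the values carry no test.

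The genes of the pathway around the AKAPs did not enter the choice of members and were tested gene by gene. Their lists came from general knowledge but were written with earlier results of these data known. The share of them that passed is thus a description only. They form 8 lists of 134 distinct genes, of which 99 were tested and 21 (21.2%) passed edgeR's test, 10 higher and 11 lower with DI, beside 14.8% of all tested genes. Their median log2 fold change was 0.07, beside 0.00 (0.0012) for all tested genes.

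The cargo of the AKAPs showed one large change. Of 10 genes for PKA subunits and inhibitors, 9 were tested, of which 1 rose and 1 fell, with a median of 0.10. Prkar2b, the type II beta regulatory subunit, had 469 and 416 counts with vehicle and 929 and 877 with DI. Its level went from 25.1 ± 0.143 to 50.4 ± 5.20 CPM, a log2 fold change of 1.01 (standard error 0.089, edgeR adjusted p = 0.00214), and it passed under each of the 15 alternatives tried. The type II alpha subunit gene Prkar2a, the more abundant of the pair per length, fell from 105 ± 1.31 to 91.3 ± 2.96 CPM (-0.21, standard error 0.051, edgeR adjusted p = 0.0479). That small change lost its call under 8 of 15 alternatives, the removal of any 1 library among them, with adjusted p from 0.0117 to 0.194 over the alternatives.

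The type I regulatory subunit gene Prkar1a was the most abundant of these genes per length, with 364 ± 5.11 CPM with vehicle and 389 ± 5.96 CPM with DI (0.10, standard error 0.037, edgeR adjusted p = 0.146). Prkar1b was rare, with 52 and 47 counts against 29 and 34, and its log2 fold change of -0.68 did not pass (standard error 0.22, edgeR adjusted p = 0.0975, 95% interval -1.21 to -0.14). The catalytic subunit genes Prkaca (0.10, edgeR adjusted p = 0.300) and Prkacb (-0.06, edgeR adjusted p = 0.402) did not pass, with 95% intervals of -0.04 to 0.25 and -0.17 to 0.05. The related kinase gene Prkx was at 0.12 (edgeR adjusted p = 0.183). Of the inhibitor genes, Pkib had 135 and 79 counts against 187 and 129 (0.56, edgeR adjusted p = 0.260), Pkig was at 0.07 (edgeR adjusted p = 0.832), and Pkia, with 1 to 6 counts a library, was not tested. With a library left out, Pkib ranged from 0.19 (without DI replicate 1) to 0.90 (without vehicle replicate 1), and Pkig from -0.17 (without vehicle replicate 2) to 0.37 (without vehicle replicate 1).

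**Figure D3:**
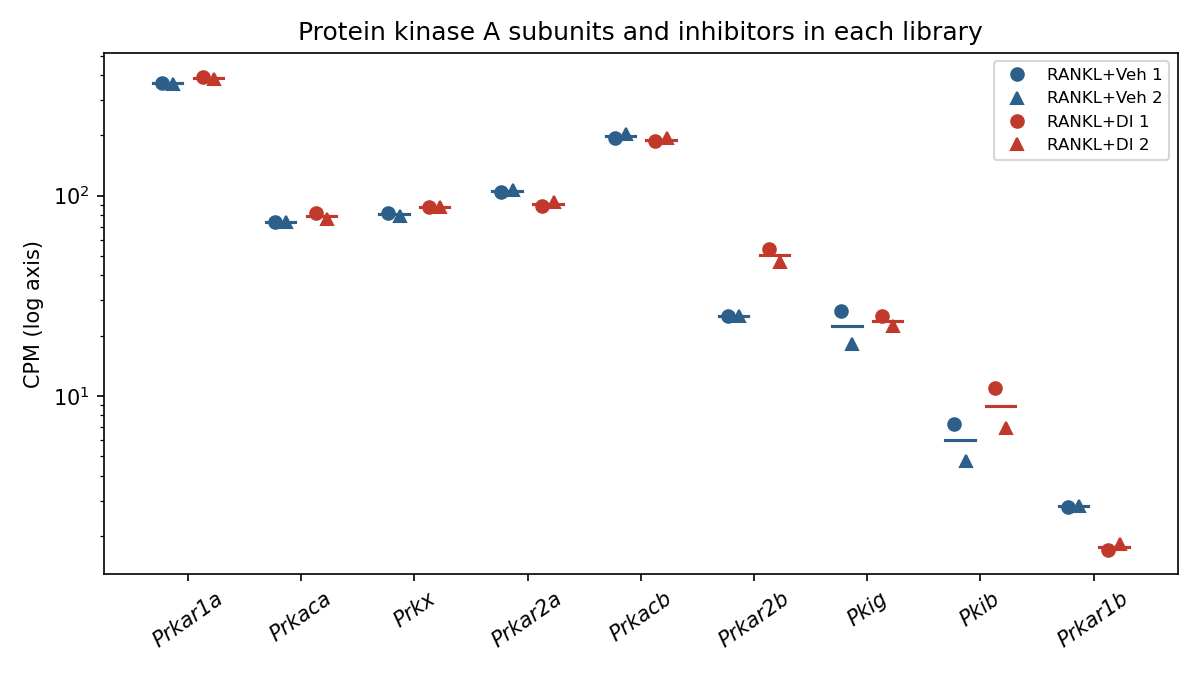
CPM (log axis) of the 9 tested genes for PKA subunits and inhibitors in each library, with vehicle in blue, DI in red, circles for replicate 1, triangles for replicate 2 and bars at group means. Prkar2b moves from 25.1 to 50.4 CPM on average, and Prkar1b and Pkib, at under 12 CPM, are the lowest.

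Production of cAMP was represented by 14 genes for G protein subunits and adenylyl cyclases, 7 of them tested, of which 3 rose and 0 fell (median 0.13). Gnas, for the stimulatory G protein, rose by 0.27 on the log2 scale (standard error 0.049, edgeR adjusted p = 0.0187). Adcy2, a cyclase, rose by 0.43 (standard error 0.11, edgeR adjusted p = 0.0479), and Gnai2, for an inhibitory G protein, by 0.13 (standard error 0.032, edgeR adjusted p = 0.0462). All 3 calls were lost with scaling by library size only and on both FPKM scales, and DESeq2 called 1 of the 3. That of Gnas was also lost without DI replicate 1 (edgeR adjusted p = 0.0519) or vehicle replicate 1 (edgeR adjusted p = 0.0672), and those of Adcy2 and Gnai2 with any 1 library left out (edgeR adjusted p from 0.0575 to 0.171).

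Breakdown of cAMP was represented by 14 phosphodiesterase genes, 11 of them tested, of which 0 rose and 2 fell (median 0.00, 8e-04). Pde2a, an enzyme stimulated by cGMP, had 2321 and 2034 counts with vehicle and 1209 and 1345 with DI. It fell from 123 ± 1.76 to 71.1 ± 0.916 CPM (-0.80, standard error 0.049, edgeR adjusted p = 6.81e-04). Pde1b, a calmodulin-dependent enzyme, fell by 0.32 (standard error 0.074, edgeR adjusted p = 0.0393), a call lost under 7 of 15 alternatives, the removal of any 1 library among them (edgeR adjusted p from 0.0756 to 0.168). Pde8a, the most abundant of the list per length over all 4 libraries though below Pde2a with vehicle (20.3 against 22.1 FPKM), had 84.5 CPM in both groups (95% interval of the log2 fold change -0.15 to 0.15, edgeR adjusted p = 0.995). Pde4d, whose product is the phosphodiesterase held by AKAP6 in the heart, was rare, with 22 and 25 counts against 34 and 21 (0.20, edgeR adjusted p = 0.766). Pde4d lies outside the rule for named genes and was added after its values were seen.

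Among 13 genes for other cAMP effectors and CREB family factors, 9 were tested and 0 passed edgeR's test, 1 of them at an unadjusted p under 0.05, where DESeq2 called 1 and limma-voom 0. Atf1, the most abundant of them per length, was at 0.08 (standard error 0.065, edgeR adjusted p = 0.457). Of 12 targets of CREB, 6 were tested and 1 fell, with a median of -0.02. It was Fos, an AP-1 subunit needed for osteoclast formation that is a target of many other pathways too, which fell from 207 ± 4.33 to 137 ± 2.76 CPM (-0.60, standard error 0.043, edgeR adjusted p = 0.00115).

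The list of other anchoring proteins held 23 genes, AKAPs with other names among them, 14 of which were tested with 1 higher, 2 lower and a median of -0.03. Both that fell are large proteins of the centrosome. Pde4dip (myomegalin) had 1788 and 1623 counts with vehicle and 1181 and 1283 with DI (-0.50, standard error 0.051, edgeR adjusted p = 0.00317), and Pcnt (pericentrin) had 1514 and 1312 against 1083 and 1106 (-0.39, standard error 0.063, edgeR adjusted p = 0.0125). Akap9, which also works at the centrosome, had overlapping groups in the values above, and the difference between these genes was not tested. Acbd3, a Golgi protein that binds the type I subunit, rose by 0.26 (standard error 0.043, edgeR adjusted p = 0.0142), which was not called with library size only, on FPKM scales or without vehicle replicate 1 (edgeR adjusted p = 0.0698). Rab32, the most abundant of the list per length and an AKAP of mitochondria, was at -0.11 (standard error 0.056, edgeR adjusted p = 0.262).

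Of the genes with an Akap symbol outside the 10 members, 6 were on that list. Akap7 had 124 and 119 counts with vehicle and 128 and 131 with DI (0.07, edgeR adjusted p = 0.787), and Akap17b had 112 and 114 against 91 and 113 (-0.18, edgeR adjusted p = 0.499). Akap3 had 16 and 13 counts against 28 and 30, a log2 fold change of 0.97 that did not pass (standard error 0.30, edgeR adjusted p = 0.0848, 95% interval 0.24 to 1.70). Akap4 had 0 counts in each library, Akap5 had 2 and Akap14 had 1 in a single DI library and 0 elsewhere, all under the floor of 3 counts. These genes were named from the list after their values were seen.

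Genes for partners of AKAP6 formed a list of 28, of which 24 were tested, 3 rose and 3 fell (median 0.09). Largest was the rise of Rps6ka3, for the kinase RSK2, from 1928 and 1672 counts with vehicle to 3783 and 3720 with DI (1.04, standard error 0.062, edgeR adjusted p = 6.47e-04). The RSK kinase best known to bind AKAP6 is RSK3, the product of Rps6ka2, which was not on the list and was looked up afterwards. Rps6ka2 had 930 and 852 counts with vehicle and 1012 and 1049 with DI (0.18, standard error 0.063, edgeR adjusted p = 0.113). Of the NFAT genes on the list, Nfatc1, the master factor of osteoclast formation, and Nfatc2 fell by 0.43 (standard error 0.052, edgeR adjusted p = 0.00504) and 0.36 (standard error 0.060, edgeR adjusted p = 0.0138). Nfatc3, the most abundant of them per length, had overlapping groups at -0.06 (standard error 0.057, edgeR adjusted p = 0.534), and Nfatc4 was too rare to be tested. Nfatc2 missed the threshold without DI replicate 1 (edgeR adjusted p = 0.0519) or vehicle replicate 2 (edgeR adjusted p = 0.0562). Of the 3 genes for catalytic subunits of calcineurin, the phosphatase that activates NFAT, a pair passed with opposite signs, Ppp3ca by 0.26 (edgeR adjusted p = 0.0141) and Ppp3cb by -0.27 (edgeR adjusted p = 0.0379), while Ppp3cc was at 0.33 (edgeR adjusted p = 0.107). The call of Ppp3ca was lost with library size only, on FPKM scales and without vehicle replicate 2 (edgeR adjusted p = 0.0649). Syne1, for the nuclear envelope protein nesprin-1 that holds AKAP6 in muscle, rose by 0.29 (standard error 0.066, edgeR adjusted p = 0.0393). Nfatc3, Nfatc4, Ppp3cb, Ppp3cc and Syne1 were named after their values were seen, and the alternatives were not run for them. Ppp3r1, the regulatory subunit of calcineurin and the most abundant of the list per length, was at 0.17 (standard error 0.045, edgeR adjusted p = 0.0594).

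Partners of the other members made up a list of 20 genes, 19 of them tested, of which 2 rose and 2 fell (median 0.01). Ncapd2, the condensin subunit that AKAP8 brings to chromosomes, fell from 146 ± 0.0265 to 98.3 ± 1.73 CPM (-0.57, standard error 0.044, edgeR adjusted p = 0.00139). Src, a kinase that binds AKAP12 and is also an osteoclast marker, fell by 0.55 (standard error 0.077, edgeR adjusted p = 0.00813). Prkcb, a protein kinase C, rose from 73.6 ± 0.888 to 128 ± 16.4 CPM (0.79, standard error 0.091, edgeR adjusted p = 0.00431). Vapb, a tether of the endoplasmic reticulum, rose by 0.25 (edgeR adjusted p = 0.0268), a call lost under 7 of 15 alternatives, the removal of DI replicate 2 or of either vehicle replicate among them (edgeR adjusted p from 0.0704 to 0.110), and Ppp1ca, the catalytic subunit of protein phosphatase 1 and the most abundant of the list per length, was at 0.06 (edgeR adjusted p = 0.304).

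**Figure D4:**
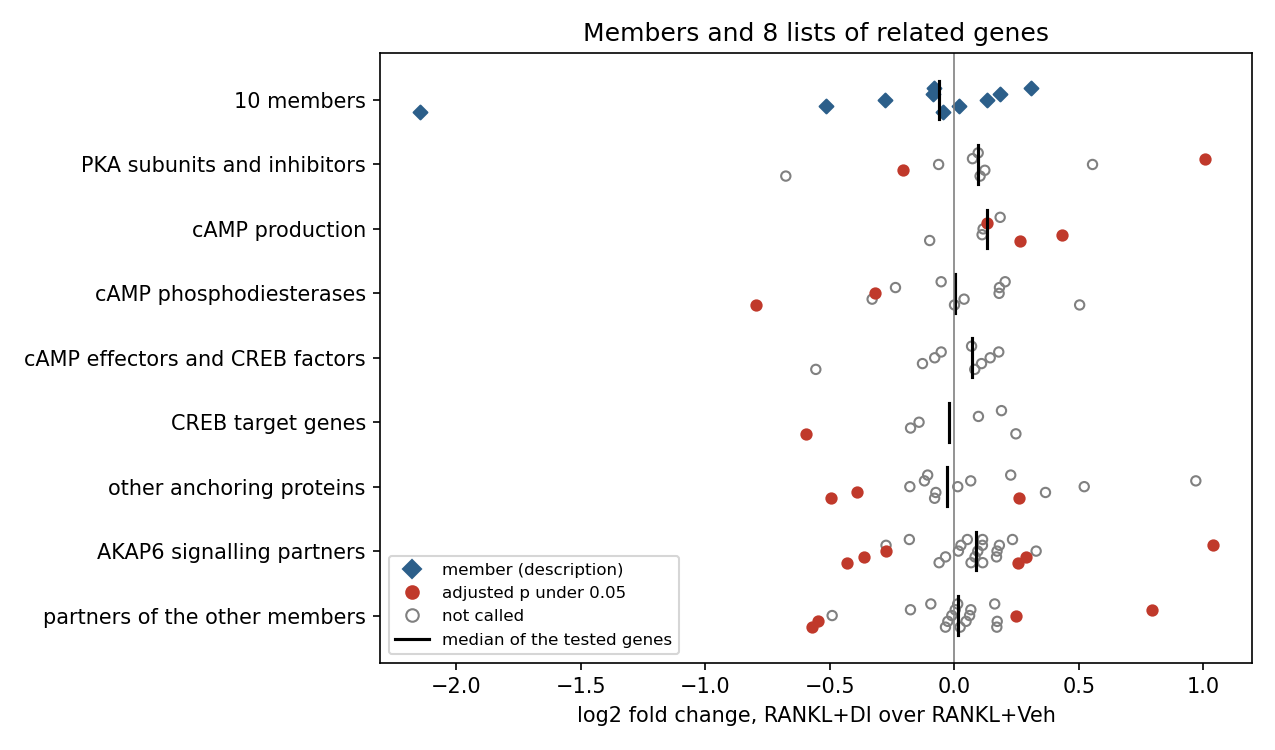
Log2 fold changes with DI over vehicle of the 10 members (diamonds) and of the tested genes of the 8 lists (circles, filled red where the adjusted p was under 0.05), with a bar at each median. Akap6 at -2.15 lies to the left of every other gene drawn, and Rps6ka3 and Prkar2b at 1.04 and 1.01 lie farthest to the right.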

How the data were processed

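RNA was measured in 2 RANKL+DI and 2 RANKL+Veh libraries of BMMs, grouped by their labels. Messenger RNA libraries were made with the VAHTS kit and sequenced from both ends. The files deposited by the authors hold a raw read count for each gene and library, not normalized, beside FPKM values that can be recomputed from these counts, 1 length per gene and the library totals. Per the labels the builds are GRCm38 and mm10, and aligner, counting program, strand setting and annotation are not given in the sources used here. A further deposited table repeats these values with GO and KEGG terms and was not used.

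The counts entered edgeR 4.0.16 in R 4.3.3 (TMM factors, default filter on low counts, quasi-likelihood fit with the condition as only term, Benjamini-Hochberg adjustment over 12590 genes). Standard errors are the log2 fold change divided by the square root of F. Residual degrees of freedom were 2. The 95% intervals were built from these standard errors with the moderated degrees of freedom of the fit, 5.95. With the residual 2 they would be wider. They were not adjusted for the number of genes, so an interval can exclude 0 where the adjusted p did not pass. Libraries of a group differed by more than sampling noise (chi-square per degree of freedom 7.57 and 7.74) and counted as 2 replicates. Alternatives were DESeq2 1.42.0, limma 3.58.1 (voom, and log2(FPKM + 0.01) and log2(FPKM + 1)), other scalings and filters, a replicate block and each library left out. Among the members, depth limits the precision of Akap12 and Akap2 most.

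Members and gene lists were chosen with earlier results of these data known, the lists from general knowledge. Named genes are the members, PKA genes, up to 4 called genes of smallest p and the most abundant gene (FPKM) of each other list, the 5 genes nearest to Akap6, its neighbours within 1 Mb and genes overlapping a member. A symbol with several identifiers was taken from the one with most counts. Transcripts were compared with GENCODE M21 by BLAST+ 2.17.0 (at least 95% identity over 20% of the transcript). Of these steps, the edgeR fit was tested on simulated counts.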

Additional observations from a re-analysis of the deposited data

How the results depend on the processing

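Akap6 was lower with DI under every alternative run. Its log2 fold change was -1.49 on the log2(FPKM + 1) scale, where the pseudocount shrinks changes of low genes, and -2.29 to -2.01 when each library was left out. Members called besides Akap6 numbered 2 (Akap1 and Akap8) with library size only, with log2(FPKM + 0.01) and with log2(FPKM + 1), settings that called 2480, 2203 and 2210 of all genes, and 0 to 2 with a library left out. Genes called over the table ranged from 1087 to 1394, and pathway genes called from 12 to 15, with a library left out. With library size only, 548 genes were higher and 1932 lower, the median of all genes shifting by -0.102. DESeq2 called 1598 genes. Over all tested genes, same-numbered replicates did not deviate together (correlation -0.0302). Whether the numbers pair the libraries cannot be settled by this single value. With the replicate block, 1389 genes, 1 other member and 15 pathway genes were called, and Akap6 was at -2.15. A crossed pairing, added after the data were seen, gave 1468, 1 and 16. With 2 libraries a group, small changes and those of rare genes such as Akap12 are the least certain.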

Other observations

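Mef2a, for a factor held by AKAP6 in the heart, had libraries that stood far apart within each group. It had 3116 and 1428 counts with vehicle and 1480 and 3449 with DI, so that DI replicate 1 was close to vehicle replicate 2 and DI replicate 2 to vehicle replicate 1. Its log2 fold change of 0.09 had a standard error of 0.42 (95% interval -0.93 to 1.12, edgeR adjusted p = 0.912), and its part in any other result was not tested. Creb1, the factor that PKA phosphorylates on its way to transcription, also varied between vehicle libraries, with 1264 and 830 counts against 619 and 825 with DI. Its log2 fold change was -0.56 (standard error 0.17, edgeR adjusted p = 0.0794), with a 95% interval of -0.96 to -0.15. Both genes were picked after their values were seen.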
